A study of Rattus norvegicus with 4 samples.

Results

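Transcript signals of rat hepatic stellate cells given a control siRNA were ranked within each of 4 microarrays, without any ratio to the partner sample on the same array. Genes were kept where a probe was well above background in the Cy3 channel on all 4 arrays, which left 19438 of 35537 gene names (23055 of 41012 probes), and 10008 of the genes kept carried a gene symbol. The series studied endoglin, which helps TGF-beta and BMP ligands to engage their receptors. Total RNA of control siRNA cells was labelled with Cy3 on every whole rat genome array, and Cy5 carried untreated cells or cells given an siRNA against endoglin. The control siRNA cells came from 1 animal on 2 arrays and from a pool of 3 animals on 2 arrays. The pooled cells had been transfected separately for each animal. The sources used here give neither the siRNA sequences nor the days in culture, strain, age or sex of the animals.

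Hepatic stellate cells wrap the sinusoids of the liver and store vitamin A as retinyl esters. On injury or on culture plastic they lose their vitamin A droplets and become contractile myofibroblasts that secrete collagen-rich matrix, a process driven by TGF-beta and platelet-derived growth factor. Preparations of these cells can carry Kupffer cells (the liver's resident macrophages), sinusoidal endothelial cells and hepatocytes, so markers of those cells were followed as well.

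Values for 4 arrays are given in the order 1 animal with untreated RNA in Cy5, 1 animal with endoglin siRNA RNA in Cy5, pool with untreated RNA in Cy5, and pool with endoglin siRNA RNA in Cy5. A signal is the mean Cy3 intensity of a spot minus its local background, in scanner units. A percentile is the rank of that signal among the genes kept on an array, with 100 for the brightest, averaged over the 4 arrays. The pooled array with untreated RNA in Cy5 stood apart: 87.2% of its 43379 gene spots were well above background, against 61.9% to 62.3% on the other arrays. Its median signal over all 43379 gene spots was 58.6, against 26.2 to 29.9. Log2 signals of the genes kept correlated with Pearson r = 0.984 and 0.985 between arrays of the same source, and with r = 0.956 to 0.958 between sources, over 19438 genes that are not independent replicates. Brightness also depends on the probe. Among 2946 genes with several probes kept, the median range between the probes of a gene was 20.4 percentile points, so an order between genes is an order of signals rather than of molecules.

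The control siRNA cells of the pool and of the 1 animal differed at many genes. By limma on quantile-normalized log2 signals, 3951 of 19438 genes differed at an adjusted p under 0.05, which is 20.3% of them: 1574 were higher in the pool (8.1%) and 2377 were lower (12.2%). The arrays of the sources did not overlap at 13386 genes (68.9%), among them all 3951 called, so such an order alone says little about a gene. With scaling to the 75th percentile in place of quantile normalization 1913 genes passed, and the share of calls that were higher in the pool was 50.5% in place of 39.8%. No gene passed when any 1 array was left out (5560 to 6935 at an unadjusted p under 0.05) or with the RNA in Cy5 as a block (6367). The labels do not say whether arrays of a source carried separate cultures, so the p-values measure only spread between arrays, which may be technical. The source also cannot be told apart from the position on the single slide. In RNA of mixed cells, fewer cells of a type and less RNA per cell cannot be told apart.

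The top of the ranking held cytoskeletal, contractile, matrix and ribosomal protein transcripts among many others, and 177 of the 500 brightest genes had no symbol. The 500 brightest genes, 2.57% of those kept, held 38.2%, 37.6%, 36.4% and 38.0% of the summed signal, and 384 genes were among the 500 brightest on every array. The brightest gene with a symbol was S100a6, a calcium-binding protein of the S100 family, with signals of 61341, 56517, 56689 and 84409. Its other probe kept lay at percentile 54.7, so this rank rests on a single probe. Next came Actb (cytoplasmic beta-actin; 64265, 67146, 54443 and 57157) and Tpm2 (beta-tropomyosin, an actin-filament protein; 53207, 54778, 54769 and 85769). The pooled array with endoglin siRNA RNA in Cy5 was the highest for S100a6 and Tpm2, and the 1-animal arrays were the higher ones for Actb. The other genes among the 25 brightest with a symbol included Tpt1 (translationally controlled tumor protein), Myl9 (regulatory myosin light chain), Ftl1 (ferritin light chain), Cryab (the small heat shock protein alpha-B-crystallin), Actg1 (gamma-actin), Col3a1 (type III collagen), Rpn1 (a subunit of the oligosaccharyltransferase), Cttn (cortactin) and the elongation factors Eef1a1 and Eef1g. Probes for Cttn ranged from percentile 65.7 to 99.8. Of 74 cytosolic ribosomal protein genes on the arrays 70 were kept, with a median percentile of 98.97, and 50 of them were among the 500 brightest. The 4 that were not kept (Rpl9, Rpl14, Rps16 and Rps24) had a spot flagged as an outlier on at least 1 array and were bright on the rest.

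Matrix genes had a median percentile of 91.0 (SD of the 4 array medians 0.54; 101 genes kept of 108 on the arrays), contractile and cytoskeletal genes 97.4 (SD 0.37; 35 of 36), receptors 62.3 (SD 0.83; 59 of 74) and markers of other liver cells 44.04 (SD 8.45; 47 of 115). The median over all genes kept was 49.7. The 500 brightest genes held 29 matrix genes, 18 contractile and cytoskeletal genes, 2 receptors and 0 markers of other cells. Of the 18, 6 were smooth muscle contractile genes and 12 came from a general cytoskeletal list. The median percentiles of these lists were 94.7 and 98.05. The general list also holds S100a6, Lgals1, Anxa1 and Anxa2.

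**Figure D1:**
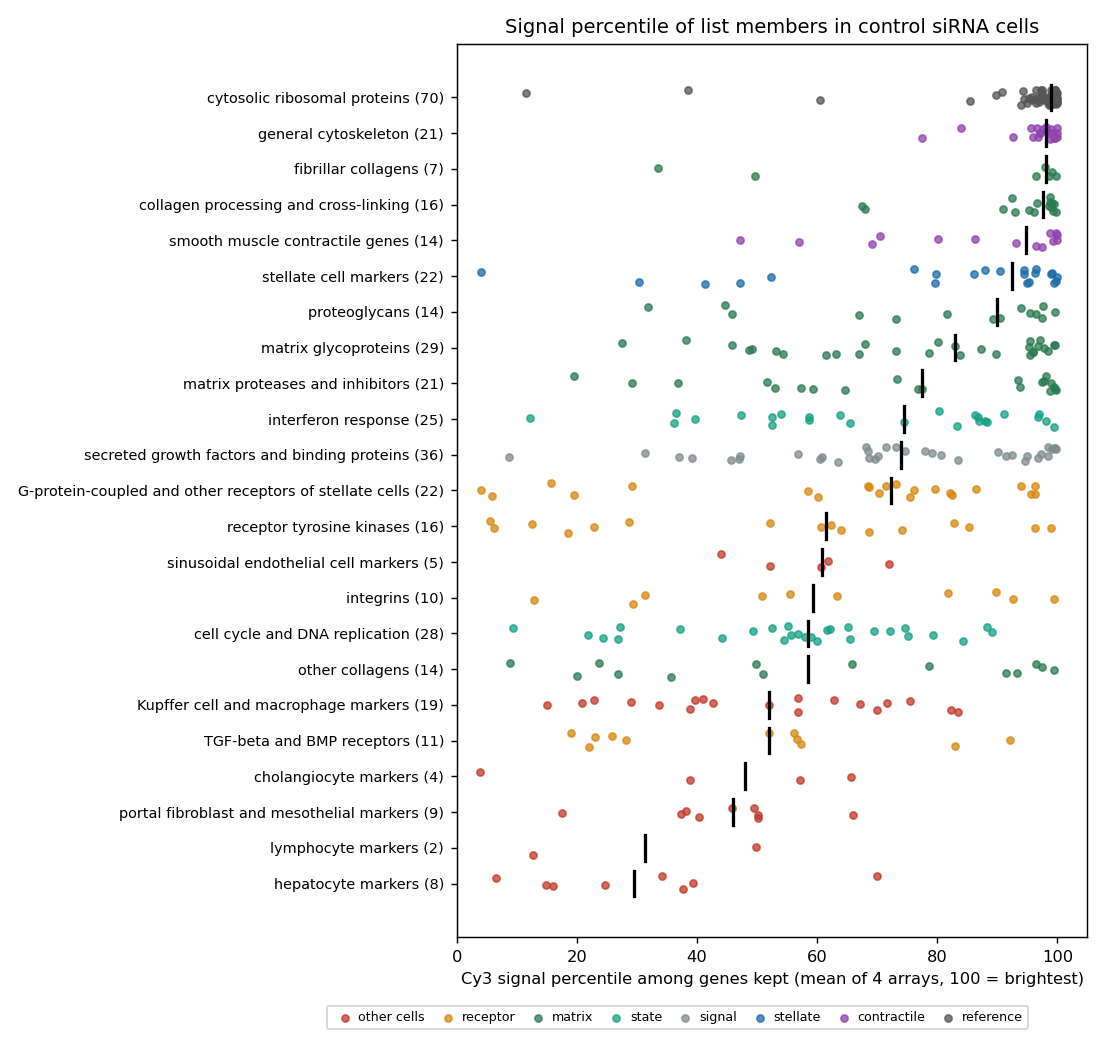
Each point is a gene of a list and the x axis is its mean Cy3 signal percentile over the 4 arrays (100 = brightest); black bars are list medians and the number kept stands beside each list. Ribosomal, cytoskeletal and fibrillar collagen genes have medians of 98.0 or higher, and hepatocyte markers have the lowest median, 29.4.

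RefSeq promoters (build GRCr8) were matched for 254 of the 500 brightest genes. The motif TATAAA, searched on the strand of the gene from 50 to 10 bases before its start, lay in 6.69% of these, in 1.68% of the 8216 promoters matched to genes kept and in 2.21% of all 27457 promoters. The 100 bases before the start are shown with the motif in capitals. The genes are a ribosomal one, a secreted one and Anxa1 (of the general cytoskeletal list), all among the 500 brightest, and the angiotensin receptor described below. They were chosen after the matches were seen.
Rps2, chr10:14251748-14251847, plus strand: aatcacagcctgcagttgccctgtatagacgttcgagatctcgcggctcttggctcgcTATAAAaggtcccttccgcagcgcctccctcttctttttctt
Ccn2, chr1:22624615-22624714, minus strand: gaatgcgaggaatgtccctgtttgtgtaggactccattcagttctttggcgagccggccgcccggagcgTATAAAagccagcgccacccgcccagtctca
Anxa1, chr1:227303733-227303832, minus strand: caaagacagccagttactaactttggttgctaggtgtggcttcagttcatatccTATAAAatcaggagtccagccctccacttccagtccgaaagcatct
Agtr1a, chr17:34435433-34435532, minus strand: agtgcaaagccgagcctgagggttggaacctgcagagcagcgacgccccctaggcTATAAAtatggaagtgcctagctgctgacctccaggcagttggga
The motif began 42, 31, 46 and 45 bases before the start in these genes. The CArG box, the site of serum response factor, was searched as CCWWWWWWGG (W is A or T) over windows of 300 bases. It was found in 0 of the 10 matched promoters of smooth muscle contractile genes. The share was 1.29% among promoters matched to genes kept and 1.64% among all promoters. With so low a share 10 promoters are too few to tell, so the count does not show that these genes lack the box. A match of letters is a description and not a site.

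Among the fibrillar collagens, which form the banded fibres of scar, Col3a1 was the brightest at percentile 99.84, with signals of 52923, 51098, 37301 and 49710. Col5a2 (27554, 29031, 27259 and 29721) and Col1a2 (24566, 24615, 22751 and 25008) followed and varied little between arrays. Col1a1, the other chain of type I collagen, read 12454, 15085, 27924 and 36428. Both pooled arrays lay above both 1-animal arrays, and the log2 difference was 1.14 ± 0.17 (SE, 2 arrays against 2; adjusted p = 0.0311). Other Col1a1 probes differed by 0.85 and 0.96 before scaling, against 1.22 for the brightest probe. Col11a1, a minor fibrillar chain, was dim in the 1 animal (73.0 and 77.8) and brighter in the pool (723 and 666). Of 7 fibrillar collagens kept, 3 were higher in the pool and 0 lower, against 8.1% and 12.2% of all genes. With scaling to the 75th percentile or without a filter on dim probes 1 was higher. The remaining collagens were mostly mid-range (median percentile 58.4 over 14 genes), with the basement membrane chain Col4a1 (33631, 32669, 31992 and 37923) the brightest. In this group of 14 genes 5 were higher in the pool and 0 lower, against the same shares of all genes. Col8a1 (log2 difference 1.34) and Col6a3 (2.74) were among the higher ones.

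The enzymes that fold, process and cross-link collagen were bright and even across arrays, with a median percentile of 97.6 over 16 genes. The collagen chaperone Serpinh1 read 39878, 40107, 40569 and 44769, and its log2 difference between sources was 0.06 ± 0.08 (adjusted p = 0.64). Loxl1 (a lysyl oxidase; percentile 99.39), Pcolce (procollagen C-proteinase enhancer; 99.32) and P4hb (a subunit of prolyl 4-hydroxylase; 99.11) were close behind. Of the 16, 2 (12.5%) were higher in the pool, against 8.1% of all genes, and 0 were lower, against 12.2%. The higher ones were P4ha1 and Plod2 (collagen hydroxylases, with log2 differences of 0.77 and 0.58). Neither was called with scaling to the 75th percentile or without a filter on dim probes.

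Matrix glycoproteins ranged from percentile 27.5 to 99.62. Sparc, a collagen-binding matricellular protein, was the brightest (44399, 38952, 35270 and 38251), followed by Mgp (matrix Gla protein, an inhibitor of calcification) at 99.43 and Ltbp1 (which holds latent TGF-beta in the matrix) at 98.5. Differences between sources ran both ways, with 6 of 29 higher in the pool (20.7%) and 3 lower (10.3%). The shares over all genes were 8.1% and 12.2%, so the share lower was near that of all genes. Members named for their differences here and below were chosen after their values were seen. Fn1 (fibronectin) read 6673, 6810, 19731 and 21523 (log2 difference 1.52 ± 0.09, adjusted p = 0.0107), with the pool above the 1 animal on both arrays. Spp1 (osteopontin, made by stellate cells and macrophages) read 9363, 10949, 1655 and 1563, the reverse order (-2.75 ± 0.11, adjusted p = 0.0106). Fbln2 (fibulin-2) was among the genes with the highest differences, at 4.00 ± 0.09, from signals of 44.8, 42.6, 797 and 829.

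Among 14 proteoglycans Bgn (biglycan; 39985, 31783, 34132 and 41460) was the brightest, and its arrays overlapped between sources. Dcn (decorin, which binds collagen and TGF-beta) read 27576, 23857, 12895 and 13772 and was lower in the pool by log2 difference -1.02 ± 0.12 (adjusted p = 0.0215). Aspn (asporin) differed by -1.04 and Sdc1 (syndecan-1) by -0.46. Gpc3, a membrane-anchored glypican, read 13.2, 14, 481 and 470 and had the highest difference of all genes tested, 5.03 ± 0.22 (adjusted p = 0.0106). In all, 3 proteoglycans were higher in the pool and 4 lower (21.4% and 28.6%, against 8.1% and 12.2% of all genes).

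The brightest genes of the protease and inhibitor list were inhibitors of metalloproteinases. Timp2 (40997, 47602, 36238 and 44248) and Timp1 (46090, 53180, 30812 and 42015) led, followed by A2m (the broad protease inhibitor alpha-2-macroglobulin), which spread widely at 24953, 32554, 35443 and 69433. Mmp14, a membrane-anchored collagenase, had a percentile of 98.7, and Mmp2, the gelatinase that it activates, 97.7. Of 21 genes of this list, 1 was higher in the pool (Mmp3, stromelysin, 0.80) and 8 were lower. These counts are 4.76% and 38.1%, against 8.1% and 12.2% of all genes. The lower ones included Plau (urokinase; 511, 219, 51.2 and 35.3; -3.25 ± 0.51, adjusted p = 0.0345) and Mmp9 (a gelatinase also made by macrophages, -3.40). With scaling to the 75th percentile 3 genes of the list were called lower. Ctsl was not kept because its spot on 1 pooled array was flagged, and it read 33704 to 44376 on the other arrays.

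**Figure D2:**
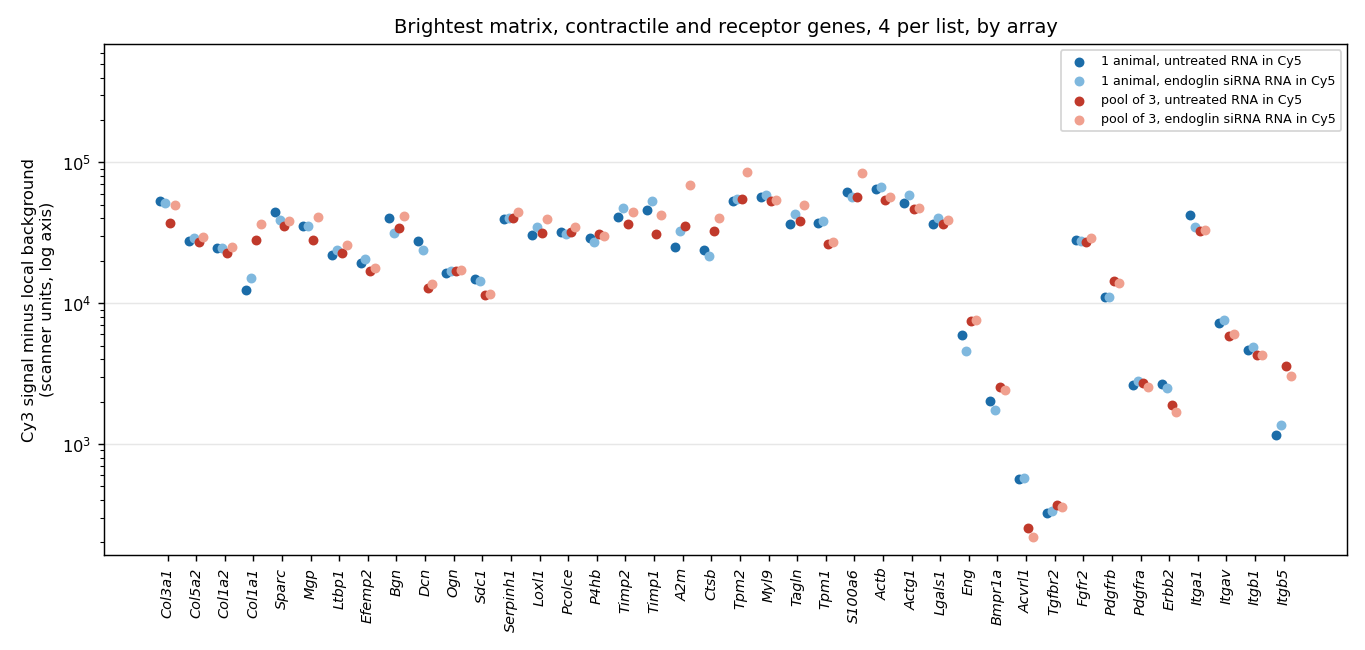
The y axis is the Cy3 signal minus local background in scanner units (log axis) and each gene has 4 points, 1 per array; the x axis gives the 4 brightest genes of each of 10 lists, with no gene repeated. Every matrix and contractile gene plotted lies above 7552, the highest signal of Eng, on all 4 arrays, and most receptors lie lower, except Fgfr2, Pdgfrb and Itga1.

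The 14 smooth muscle contractile genes kept had a median percentile of 94.7 and ranged from 47.1 to 99.97. No probe carried the name Acta2, the smooth muscle actin used to mark myofibroblasts, so that transcript was not assessed. Myl9 read 56387, 58652, 53369 and 54068, and Tagln (transgelin, an actin-binding protein of smooth muscle) read 36643, 42715, 38559 and 49883. Actg2 (enteric smooth muscle actin) had a percentile of 98.7 and Tpm1 99.21. Of 14 smooth muscle genes 7 were lower in the pool and 1 was higher, against 12.2% and 8.1% of all genes, and 6 did not pass (3 lower with scaling to the 75th percentile and 4 with either looser filter on dim probes). Smtn (smoothelin, a marker of contractile smooth muscle) read 7190, 7615, 1636 and 1590 (-2.30 ± 0.09, adjusted p = 0.0102). Cnn1 (calponin, -1.08), Flnc (filamin C, -1.25), Csrp1 (a LIM-domain protein, -1.02), Lmod1 (leiomodin, -0.94), Cald1 (caldesmon, -0.55) and Tpm1 (-0.53) were lower as well. The other Tpm1 probes differed by 1.21 and -2.01 before scaling, so they disagreed in direction. Myh11, the smooth muscle myosin heavy chain, ran the other way at 1124, 1150, 2665 and 2628 (1.12 ± 0.08, adjusted p = 0.0137), but its dimmer probe differed by -0.22 before scaling. Of 21 general cytoskeletal genes 0 were higher in the pool and 2 lower, Actn1 (alpha-actinin, -1.27) and Cfl1 (cofilin, -0.57), of which 1 was called with scaling to the 75th percentile. Probes for Tpm3 ranged from percentile 6.32 to 97.8, and those of the ribosomal gene Rpl28 from 15.5 to 99.

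Receptors were dimmer and more spread out. Eng, the target of the endoglin siRNA, read 5987, 4542, 7498 and 7552 in these control cells (percentile 92.1) and was the brightest of the TGF-beta and BMP receptors. Its log2 difference between sources, 0.44 ± 0.19, did not pass (adjusted p = 0.193). The BMP receptor Bmpr1a read 2028, 1735, 2543 and 2403. The type I receptor Acvrl1, which signals together with endoglin in endothelium, read 562, 574, 252 and 219 (-1.40 ± 0.09, adjusted p = 0.0117). Of the type II receptors, Bmpr2 read 241, 192, 558 and 493 (1.15 ± 0.17, adjusted p = 0.0321), whereas Tgfbr2 read 326, 334, 371 and 358 (-0.02 ± 0.09, adjusted p = 0.885). Tgfbr1, the type I receptor of TGF-beta, lay at percentile 22.1 (63.4, 72.1, 42.1 and 32.4). In all, 1 of 11 was higher in the pool and 3 were lower (9.09% and 27.3%, against 8.1% and 12.2% of all genes). These counts were 0 and 2 with scaling to the 75th percentile, and 0 and 1 without a filter. Bmpr1b and Amhr2 were well above background only on the pooled array that stood apart.

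Among receptor tyrosine kinases Fgfr2 was the brightest, at 28307, 27853, 27354 and 28902. Its 4 probes spread from percentile 35.6 to 99.1, so the rank rests on a single probe. Pdgfrb, the receptor through which platelet-derived growth factor drives stellate cell division, read 11116, 11084, 14298 and 13956, and its difference did not pass (0.25 ± 0.09, adjusted p = 0.136). Pdgfra read 2613, 2808, 2730 and 2561. Kdr, a receptor for vascular endothelial growth factor, read 1190, 894, 91.6 and 72.0 (-3.87 ± 0.21, adjusted p = 0.0107), whereas its relative Flt1 read 332, 322, 619 and 571 (0.72 ± 0.10, adjusted p = 0.0288). Of 16 kinases 1 was higher in the pool and 4 were lower (6.25% and 25%, against 8.1% and 12.2% of all genes). These counts were 1 and 2 with scaling to the 75th percentile, and 0 and 2 without a filter.

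Of the other receptors, the angiotensin receptor Agtr1a (11034, 10212, 14689 and 15065) and the Wnt receptor Fzd1 (13741, 11105, 12190 and 13241) were the brightest, both at percentile 96.2. Tnfrsf11b (osteoprotegerin, a secreted decoy receptor, -1.14) and Ednrb (an endothelin receptor, -1.28) were lower in the pool. Lpar1, a receptor for lysophosphatidic acid, read 353, 395, 3526 and 3707 (3.14 ± 0.09, adjusted p = 0.0102). The hyaluronan receptor Cd44 was lower in the pool with its brightest probe (-1.91) but a second, dimmer probe pointed the other way (1.38 before scaling). In this list 5 of 22 were higher in the pool and 4 lower (22.7% and 18.2%, against 8.1% and 12.2% of all genes). Among 10 integrins the collagen receptor subunit Itga1 was the brightest (42388, 35022, 32632 and 33076), followed by Itgav and Itgb1 at percentiles 92.6 and 89.7. Of the 10, 3 were higher in the pool and 1 lower (30% and 10%, against the same shares of all genes).

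Secreted growth factors and their binding proteins had a median percentile of 74.0 over 36 genes, of which 6 were among the 500 brightest. Ccn2 (connective tissue growth factor; 46589, 46037, 35836 and 37851), Igf1 (35118, 49268, 30657 and 40864) and Vegfc (36349, 38577, 36812 and 32288) led. Probes for Igf1 ranged from percentile 22.7 to 99.6. The chemokine Cxcl12 read 25817, 19743, 35766 and 48535 and did not pass (0.83 ± 0.20, adjusted p = 0.0713). Of the TGF-beta ligands Tgfb3 was the brightest by signal (22312, 23095, 22652 and 22625), while Tgfb1 read 1292, 1105, 491 and 466 and was lower in the pool (-1.43 ± 0.14, adjusted p = 0.0183). In this list 9 of 36 were higher in the pool and 10 lower (25% and 27.8%, against 8.1% and 12.2% of all genes). The matricellular CCN family split, with Ccn3 (1.90), Ccn4 (1.74) and Ccn5 (3.44) higher in the pool, Ccn1 lower (-1.69) and Ccn2 not called (-0.36). Igfbp4, a binding protein for insulin-like growth factors, read 5059, 5092, 602 and 604 (-3.17 ± 0.09, adjusted p = 0.0102).

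Stellate cell markers were bright, with a median percentile of 92.5 over the 22 kept of 27 on the arrays. Cryab read 49843, 48423, 50934 and 51536, and cytoglobin (Cygb) 41552, 38530, 29943 and 32567. The intermediate filament desmin (Des) read 12269, 12069, 13795 and 14084, and its sources did not differ by the test (0.09 ± 0.08, adjusted p = 0.506). Lrat, which esterifies retinol for storage, read 16324, 16529, 5517 and 5760 (-1.65 ± 0.08, adjusted p = 0.0107), although its dimmer probe differed by 0.33 before scaling. Nes (nestin, an intermediate filament of activated cells) read 13662, 13042, 2578 and 2506 (-2.51 ± 0.09, adjusted p = 0.0102). A pair of retinoid enzymes ran the other way: Dhrs3, which reduces retinal to retinol, read 594, 567, 8390 and 8668 (3.76 ± 0.10, adjusted p = 0.0102), and Cyp26b1, which degrades retinoic acid, read 40.6, 60.4, 1100 and 1122 (4.30 ± 0.24, adjusted p = 0.0107). In the marker list 3 were higher in the pool and 7 lower (13.6% and 31.8%, against 8.1% and 12.2% of all genes). These counts were 1 and 4 with scaling to the 75th percentile, and 1 and 2 without a filter on dim probes. The glial filament gene Gfap, Pparg, Syp and Aldh1a2 were well above background only on the pooled array that stood apart, and Aldh1a1 on that array and 1 other; Gfap read 7.08, 3.15, 97.2 and 0.568.

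Macrophage transcripts were well above background in the control siRNA cells and formed the list with the largest median difference between sources of the 23 lists. Cd68, a lysosomal protein of macrophages, read 3059, 3125, 412 and 302, and Lyz2 (lysozyme) read 6094, 6325, 1034 and 901. For both genes the 1-animal arrays lay far above the pooled arrays, with log2 differences of -3.26 ± 0.16 (adjusted p = 0.0106) and -2.77 ± 0.11 (adjusted p = 0.0102). Of 19 Kupffer cell and macrophage markers kept, 15 were lower in the pool and 0 higher, against 12.2% of all genes lower, and the list's median log2 difference was -3.26 against -0.02 for all genes. The median was -3.46 without the pooled array that stood apart and -1.71 with the normexp background correction, where 15 were again lower; with scaling to the 75th percentile 13 were. The median percentile of the list was 67.3, 66.3, 33.6 and 34.4 on the 4 arrays. Tyrobp (an adaptor of myeloid receptors; 3142, 3078, 337 and 249), Laptm5 (4575, 4689, 520 and 410) and Adgre1 (the F4/80 antigen; 630, 628, 57.0 and 36.9) had the same order. Cd14, which had the highest mean percentile of the list (83.4), differed less (2852, 2937, 1808 and 1814, log2 difference -0.79 ± 0.08). On the 1-animal arrays Lyz2, Laptm5, Tyrobp and Cd68 had higher signals than Cd14. The 4 that did not pass were C1qb (626, 625, 725 and 690), the receptor Csf1r (136, 119, 112 and 117), Mrc1 and C1qc. The 5 markers on the arrays that were not kept (Cd163, Ptprc, Vsig4, Cybb and Itgam) were well above background on both 1-animal arrays. All but Cd163 were so on the pooled array that stood apart too. Vsig4 read 281, 310, 24.3 and 3.25, while Ptprc (14, 6.96, 45.4 and -0.833) and Itgam (22.5, 26.7, 33.7 and 2.16) were highest on that pooled array.

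Several defining endothelial genes were near background, though not all endothelial markers were. Of 19 sinusoidal endothelial markers on the arrays 5 were kept, and Pecam1 read 2.49, -6.21, 7.41 and 61.8 while Stab2 read 3.41, 3.71, 24.3 and -4.40. Egfl7, a secreted endothelial factor, was not kept because its spot was flagged on 1 array of the 1 animal, and it read 4054, 4605 and 4444 on the others. Among the 5, Fcgr2b (an immunoglobulin Fc receptor that macrophages also carry) read 2022, 2252, 155 and 125 (-4.11 ± 0.09, adjusted p = 0.0102) and Esam (an adhesion molecule) 1178, 1257, 741 and 687. Of the 5, 3 were lower in the pool and 1, Flt1, was higher (60% and 20%, against 12.2% and 8.1% of all genes). Of 27 hepatocyte markers 8 were kept, and Alb (albumin) read 2.45, 2.90, 21.3 and -9.71. Of the 19 hepatocyte markers not kept, 13 were well above background only on the pooled array that stood apart. The brightest that was kept, Arg1 (arginase, also made by macrophages), read 1981, 1965, 418 and 346 (-2.51 ± 0.11, adjusted p = 0.0106). Apoc3, of the same list, ran the other way at 70.5, 63.5, 238 and 209 (1.52 ± 0.10, adjusted p = 0.0119). In all, 1 of the 8 was higher in the pool and 2 were lower (12.5% and 25%, against 8.1% and 12.2% of all genes). Krt19, a keratin of bile duct cells, read 3.47, -1.28, 6.78 and -1.01, and 4 of 14 cholangiocyte markers were kept. Of 15 lymphocyte markers 2 were kept.

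Markers of portal fibroblasts and mesothelium went both ways, with 4 of 9 higher in the pool and 3 lower. These counts are 44.4% and 33.3%, against 8.1% and 12.2% of all genes. Msln (mesothelin) read 84.8, 78.3, 674 and 668 (2.86 ± 0.10, adjusted p = 0.0102) and Upk1b (uroplakin) was higher by 2.41, while Entpd2 (an ectonucleotidase of portal fibroblasts) read 1072, 1031, 399 and 372 (-1.56 ± 0.10, adjusted p = 0.0115). Fbln2, described above, is also on this list and was higher. Both probes of Gpm6a were lower (-1.03 and -1.53 before scaling), and Wt1 differed by -0.05 before scaling. Portal fibroblast and mesothelial members were not tested apart. The keratin Krt7, of the cholangiocyte list, was not kept because only 1 of the 1-animal arrays passed, and it read 5.82, 2.16, 1084 and 991.

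**Figure D3:**
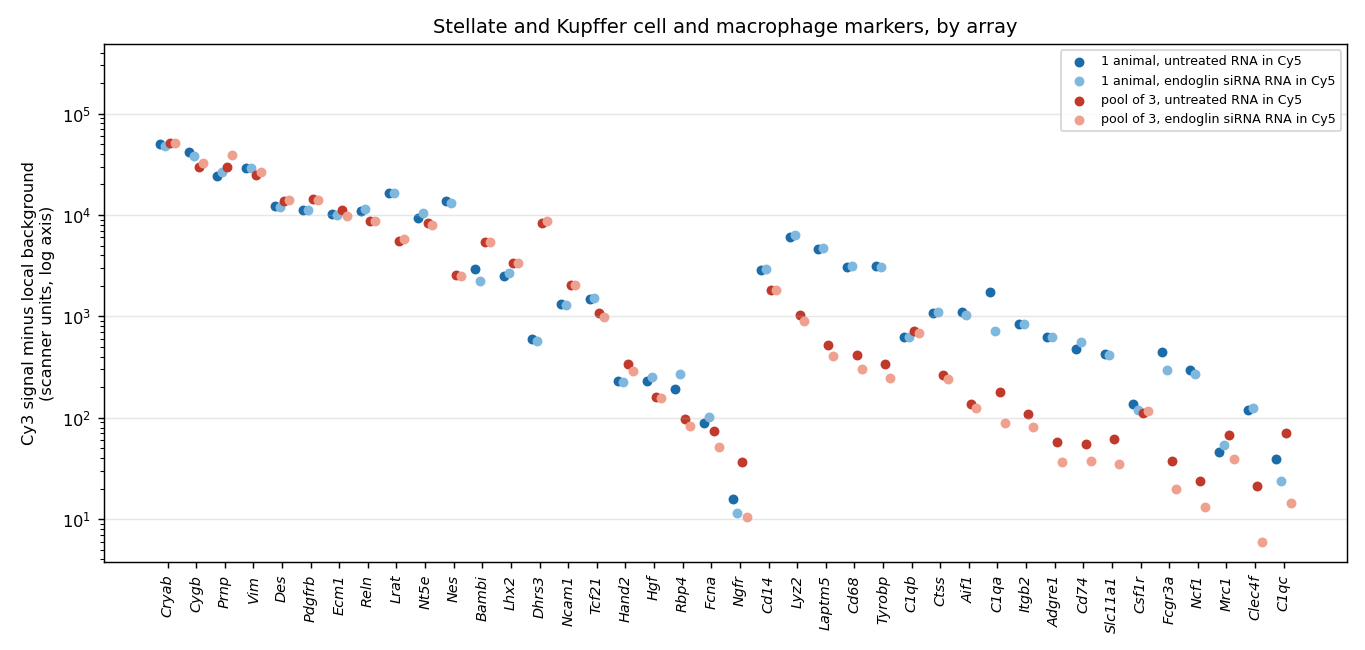
The y axis is the Cy3 signal minus local background in scanner units (log axis), with 4 points per gene, 1 per array; stellate markers reported here are on the left and Kupffer cell and macrophage markers on the right, each by falling percentile. Most macrophage markers show both 1-animal arrays far above both pooled arrays. Cd14 differs less, and C1qb, Csf1r, Mrc1 and C1qc did not pass.

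Among the 12 genes lowest in the pool, several are known from macrophages: Mmp12 (macrophage elastase; 5255, 5334, 227 and 162; -4.90 ± 0.14, adjusted p = 0.0102), the chemokine Ccl6 (-5.17), the complement receptor C5ar1 (-4.34), the NADPH oxidase subunit Ncf1 (-4.22, itself a member of the macrophage list) and the interleukin antagonist Il1rn (-4.06). The deepest difference was that of Crispld2, a secreted protein, at 1820, 1709, 64.8 and 40.6 (-5.33 ± 0.11, adjusted p = 0.0102), followed among the rest by Ch25h (cholesterol 25-hydroxylase, -4.74), Slc13a3 (a dicarboxylate transporter, -4.27), Pilra (a myeloid inhibitory receptor, -4.25), Igsf6 (-4.22) and Napsa (an aspartic protease, -4.12). Over the 19 macrophage markers kept, the summed quantile-normalized level was 29410 and 27390 in the 1 animal and 5532 and 5187 in the pool. Only markers well above background on all 4 arrays were kept, so this sum cannot show whether a marker was absent from the pool. The part of macrophage RNA in these differences was not tested. Besides Gpc3, Fbln2, Dhrs3 and Cyp26b1, the genes highest in the pool were Nefm (a neurofilament; 102, 110, 2228 and 2079), the interferon-induced GTPase Mx2 (58.7, 69.4, 1233 and 1190), Asb12, Esm1 (endocan), Ppfia4, Htra1 (a secreted serine protease; 94.1, 101, 1521 and 1433), Pkp2 (plakophilin, of desmosomes) and Mtus2. The log2 differences of Nefm to Mtus2 were 3.57 to 4.16. They were chosen for these differences, so the order of their arrays is no further result.

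Of 25 interferon response genes 12 were higher in the pool and 3 lower, against 8.1% and 12.2% of all genes, and 10 did not pass. The list had a median log2 difference of 1.19 (1.38 without the pooled array that stood apart and 0.50 with the normexp background correction). Isg15 (a ubiquitin-like modifier) read 1750, 1879, 6668 and 6458 (1.75 ± 0.09, adjusted p = 0.0106), and Rsad2 (viperin) read 32.0, 26.4, 408 and 408 (3.56 ± 0.10, adjusted p = 0.0102). The 3 lower ones were the membrane proteins Ifitm1, Ifitm2 and Ifitm3 (-0.66, -0.67 and -0.56), which were also among the brightest of the list; with scaling to the 75th percentile 1 was called lower, and without a filter on dim probes 0. Cell cycle genes went mostly the other way, with 13 of 28 lower in the pool and 4 higher (median -0.80, and -0.37 with normexp; 10 lower and 2 higher with scaling to the 75th percentile, 12 and 1 without a filter). Cdk1 (the mitotic kinase) read 6838, 7275, 2345 and 2331 (-1.70 ± 0.09, adjusted p = 0.0107) and cyclin B (Ccnb1) 1513, 1436, 276 and 261 (-2.58 ± 0.10, adjusted p = 0.0102). The higher ones were Ccnd1 (cyclin D; 1809, 2318, 10700 and 10969; 2.31 ± 0.14, adjusted p = 0.0115), Ccne1, Mcm3 and Tyms, which act at entry to or during DNA replication. For comparison, 0 of 70 ribosomal protein genes passed in either direction, and their median log2 difference was 0.04. Rps26 nevertheless read 46.3, 328, 1742 and 2111 (3.81 ± 1.04, adjusted p = 0.0875), with the 1-animal arrays far apart from each other.

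**Figure D4:**
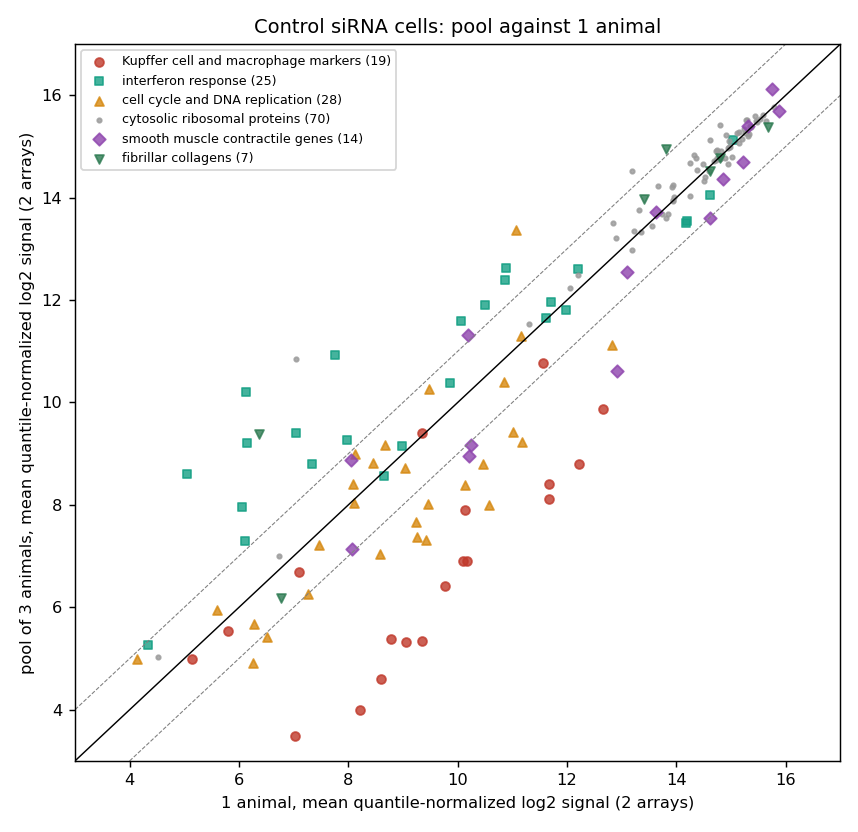
Each point is a gene; the x axis is the mean quantile-normalized log2 signal of the 2 arrays of 1 animal and the y axis that of the 2 pooled arrays, with the solid line at equality and dashed lines at 2-fold. Macrophage markers lie mostly below the lower dashed line, interferon genes mostly above equality, and ribosomal genes near it except Rps26, which is 3.81 higher in the pool on the log2 scale.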

How the data were processed

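Per the file headers, the authors read the 2-colour scans with Agilent software (Feature Extraction, version 9.5.1.1). The deposited spot means and local backgrounds are linear intensity readings. Cy3 was assigned to control siRNA cells per the labels. Per the labels, the authors continued in Rosetta Resolver. The deposited value table holds log10 ratios that matched Cy5 over Cy3 on 2 arrays and had the opposite sign (correlation -1.000) on both arrays with untreated RNA in Cy5; the sources used here give no reason, and the dyes of the labels were followed. The median log2 difference of macrophage markers was -3.36 between the arrays with untreated RNA and -3.33 between the other 2.

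Of 45018 spots per array 43379 carried gene probes; 123 to 202 gene spots flagged as non-uniform or population outliers were left out, and 0 were saturated. The local median background was subtracted and spots were averaged per probe. A probe was kept where at least 0.5 of its usable spots were well above background on each array and its value was above 0, which removed 6 probes; the brightest probe stood for a gene. Names were updated with the RefSeq table of GRCr8 (5455 by accession, 2675 by symbol, 1892 by synonym; 9416 unmatched kept the array's name).

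Log2 signals were quantile-normalized and tested with limma 3.58.1 in R 4.3.3 (lmFit, eBayes, prior degrees of freedom 1.48; data.table, version 1.17.8), pool minus 1 animal, with Benjamini-Hochberg adjustment at 0.05 over all 19438 genes. Errors are standard errors of that fit. Python 3.11.15 with pandas 2.3.3, numpy 2.4.6 and matplotlib 3.10.9 served for the rest. The test was tried on simulated data with known changes. Depth is limited by the number of arrays. The 23 gene lists and the genes ranked were chosen with earlier results of these data known. Genes named were the 25 brightest with a symbol, the 5 brightest of each list (6 for other cells), the 12 highest and 12 lowest differences that passed, Eng, Acta2, Des, Lrat, Cd68, Alb, Pecam1 and Krt19, the 3 list members whose probes disagreed most, and others said to be chosen after their values were seen; a few of these genes are not reported here.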

Additional observations from a re-analysis of the deposited data

Results flagged for a closer look

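The share of gene spots well above background was 87.2% on the pooled array with untreated RNA in Cy5, against 61.9% to 62.3% on the other 3 arrays. Its gap to the next array was 0.986 of the whole range of the 4 values, above Dixon's critical value for 4 samples. Of 24 array measures and list medians examined this way, 1 was marked, and chance alone marks about 1 in 20. Without this array no gene was called between the sources. The median log2 difference was then -3.46 for macrophage markers (-3.26 with it), 1.38 for interferon response genes (1.19), -0.77 for cell cycle genes (-0.80), -0.48 for smooth muscle genes (-0.50), -0.32 for proteases and inhibitors (-0.41), -0.68 for hepatocyte markers (-0.39), 0.54 for portal and mesothelial markers (0.37) and -0.27 for integrins (-0.05).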

How the results depend on the processing

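The number of genes called between the pool and the 1 animal, 3951, changed by more than 1.5 times in 3 kinds of setting: 1913 with scaling to the 75th percentile, 2022 without a filter on dim probes, and 0 with the RNA in Cy5 as a replicate block or without any 1 array (0 to 0; lowest adjusted p 0.0562 to 0.109). Leaving out an array leaves its source with a lone array whose spread is assumed to equal that of the other source. Each kind of Cy5 RNA (untreated or endoglin siRNA) was used once per source, but with 2 pairs it was not tested whether they deviate together. All 60 named genes that were called lost the call in these block and leave-one-out fits. The other settings gave 2832 (well above background on at least 2 arrays) to 5547 (normexp with an offset of 50) calls. An empirical Bayes variance trend, chosen after seeing the data, gave 5239. Of 154 named genes, 10 lost the call with scaling to the 75th percentile and 13 without the filter. No call of a named gene reversed, while named genes that passed in neither fit changed sign 108 times over all settings. Of all 3951 genes called, 3922 kept the sign of their difference with the processed signal of the Agilent software. With the mean of all kept probes of a gene 3934 did, and in each other setting 3948 to 3951. The median percentile of matrix genes, 91.0, was 86.8 with the mean of all probes of a gene, 91.7 with the filter on at least 2 arrays, and 90.8 to 91.7 with 1 array left out. That of receptors, 62.3, was 58.4, 64.6 and 61.8 to 64.2 in these settings, and 65.5 without a filter; with the mean of all probes 1 receptor was among the 500 brightest in place of 2. The medians of contractile and cytoskeletal genes (97.1 to 97.8) and of other-cell markers (43.5 to 46.6) moved by less than the spread between arrays. The other class counts moved by less than 1.5 times.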
